A study of Mus musculus with 8 samples.

Results

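A set of 9 genes of the cardiac sarcomere was followed here by symbol: titin (Ttn), the thick-filament gene Mybpc3, the M-band genes Myom1 and Myom2, and the Z-disc genes Actn2, Ldb3, Nexn, Myoz2 and Tcap. All 9 were found as single entries among the 48440 of the count table, and all 9 were among the 13771 genes with enough counts to be tested. The samples were cardiomyocytes purified from hearts of C57BL6/J mice of both sexes at 2 days after birth, and the labels name no treatment, transgene or other allele. Each of 4 litters gave 1 male and 1 female heart, which makes 4 males, 4 females and 8 libraries. Total counts per library ran from 14226342 to 24910243.

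The sarcomere is the contractile unit of striated muscle. It is bounded by Z-discs, where the thin filaments of neighbouring units are cross-linked, and it holds an M-band at its centre, where the thick filaments are tied together. Titin runs from the Z-disc to the M-band as a molecular spring and scaffold, and defects in several of these genes are known causes of inherited cardiomyopathy in people. Around birth the heart muscle is still growing, and its sarcomere proteins and titin isoforms are being exchanged for adult ones.

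All 9 are protein-coding genes in GENCODE M21 (GRCm38). On the plus strand lie Mybpc3 at chr2:91118144-91136516, Myom1 at chr17:71002633-71126856, Myom2 at chr8:15057653-15133541 and Tcap at chr11:98383811-98384953. On the minus strand lie Ttn at chr2:76703980-76982547, Ldb3 at chr14:34526603-34588682, Myoz2 at chr3:123006206-123035015, Actn2 at chr13:12269426-12340760 and Nexn at chr3:152236982-152266350. The table gives 1 read count per symbol and library.

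The cell type was checked first. The 10 cardiomyocyte markers, none of them a member, summed to 73475 to 100612 CPM (read counts relative to library size, scaled by the trimmed mean of M values, TMM) and none was at 0 in any library. Markers of other cells were far lower, with sums of 41.9 to 263 CPM for 10 fibroblast genes, 18.4 to 166 CPM for 10 endothelial genes and 422 to 1137 CPM for 7 mural genes. The erythroid, macrophage and epicardial lists summed to 97.7 to 529, 3.02 to 8.46 and 1.69 to 5.07 CPM. Skeletal muscle also uses most of the 9 genes, but its 11 markers summed to 6.03 to 8.90 CPM, and Myh1, Myh4, Myod1 and Pax7 had 0 counts in all 8 libraries. Litter 3 stood apart in these lists: the cardiomyocyte sum was 73993 CPM in its male and 73475 CPM in its female, against 88408 to 100612 CPM elsewhere. Its mural sum of 422 to 452 CPM and its fibroblast sum of 41.9 to 60.7 CPM also lay below the other 6 libraries, at 878 to 1137 CPM and 123 to 263 CPM. Acta2 carried most of the mural sum, with a mean of 356 CPM for litter 3 against 832 to 966 CPM for the others. Some genes of these lists went the other way, as Cspg4, a mural marker (69.5 CPM), and Pdgfra, a fibroblast marker (3.17 CPM), had their highest litter mean in litter 3. The epicardial sums of litter 3 were also the lowest, at 1.69 and 2.13 CPM. Its erythroid sum was the highest in the male, at 529 CPM, and 184 CPM in the female. Endothelial sums were highest in litter 2, at 98.0 CPM in the male and 166 CPM in the female. By edgeR's test 0 of the 10 cardiomyocyte markers were higher and 6 lower in litter 3, where 14.8% of all genes were lower. Myh6 was at 16510 CPM there and at 24733 CPM or more in the other litter means, while Tnnt2 (13041 CPM) and Pln (6443 CPM) were highest in litter 3. In litter 1, 3 were higher and 0 lower, next to 7.86% of all genes higher, and in litter 4 there were 5 higher and 1 lower, next to 4.71% and 5.8%. Mitochondrial genes took 18.5% of counts in the male of litter 4 and 13.4 to 15.2% in the other 7 libraries. Beyond the other scalings given below, the part of these shifts in the litter differences was not tested.

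The 9 genes together made up 1.80% of all counts in the library with least, the male of litter 4, which had the highest mitochondrial share, and 2.22% in the library with most, the male of litter 1. Titin alone took 0.588% of counts in the male of litter 4 (95% Wilson interval 0.585 to 0.592%, which covers counting error only) and 0.816% in the male of litter 1 (0.813 to 0.820%). By read count Ttn ranked between the 12th and the 14th of all entries, and among entries outside the mitochondrial genome between the 6th and the 8th. Mybpc3 was the 18th to 20th entry and Actn2 the 23rd to 34th. Tcap, the shortest of the 9, ranked lowest, between the 367th and the 675th.

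Read counts grow with transcript length, so levels were compared between genes per kilobase of annotated exon (GENCODE M21, GRCm38). On that scale titin moved from first to last. Its exons, 345 blocks of 116825 bases in all on chromosome 2, held 61.5 ± 5.85 CPM per kb (SD, n = 8), with a range of 53.0 to 69.9. Mybpc3, which encodes the cardiac myosin-binding protein C that sits on the thick filament and tunes cross-bridge cycling, was highest at 1140 ± 117 CPM per kb. Actn2, the α-actinin that cross-links actin at the Z-disc, followed at 686 ± 89.3. In all 8 libraries Mybpc3 was above Actn2, Actn2 above the next gene, and every other member above Ttn.

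The 6 genes between Actn2 and Ttn lay close together, from 251 ± 42.7 CPM per kb for Tcap down to 153 ± 26.7 for Myom2. Tcap and Ldb3 (237 ± 18.7) differed by less than the larger of their SDs, as did Nexn (193 ± 15.4) and Myoz2 (184 ± 20.8), and Myom1 (161 ± 15.0) and Myom2. Tcap was above Ldb3 in only 5 of 8 libraries. Ldb3 was above Nexn in all 8, and Myoz2 above Myom1 in 6. The order of these 6 also depended on the length used. With the longest annotated transcript in place of all exons Tcap fell from the 3rd to the 8th place, at 251 CPM per kb, and Myom1 rose to the 3rd place, at 298. Mybpc3 and Actn2 kept the first and second place and Ttn the last.

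**Figure D1:**
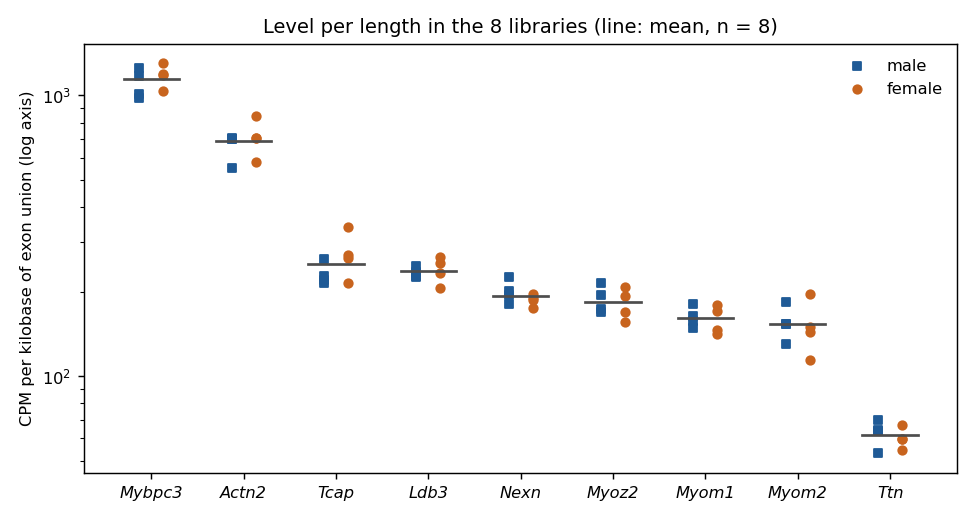
Level per length of the 9 genes, as CPM per kilobase of exon union on a log axis, with 1 point per library (squares male, circles female) and a line at the mean of 8. Mybpc3 and Actn2 lie above all others and Ttn below, while the 6 genes between them form overlapping neighbours from 251 down to 153.

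The first comparison asked whether these genes differ between male and female hearts. No member was called. By edgeR's quasi-likelihood test, adjusted over all tested genes, 0 of the 9 members were called, as were 0 at an unadjusted p under 0.05 and 0 in DESeq2. The background was 0.0436% of genes called, 0.0363% higher and 0.00726% lower in males. The mean level of Ttn was 7329 ± 824 CPM in the 4 males and 7033 ± 595 CPM in the 4 females (SD), and the male minus female difference was 0.06 in log2 (SE 0.11). Among the other members the log2 fold changes, male minus female, lay between -0.23 and 0.10, and in all 9 the ranges of the sexes overlapped. Actn2 (-0.10, SE 0.13) and Mybpc3 (-0.09, SE 0.11) had the lower level in the male of all 4 litters, without passing the test.

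Tcap had the largest difference between the sexes. It encodes telethonin, which caps the end of titin at the Z-disc. Its level was 209, 203, 216 and 249 CPM in the males of litters 1 to 4 and 203, 255, 249 and 323 CPM in the females. The female was higher in 3 of 4 litters, but the groups overlapped, and the log2 fold change of -0.23 (SE 0.13) had an edgeR adjusted p of 0.9996. It was -0.33 when the litter 1 female was left out and -0.11 when that of litter 4 was. In the paired fit, where litter enters as a block, Tcap had an unadjusted p of 0.00577 and an edgeR adjusted p of 0.295. That fit called 0.211% of all genes, 0.152% higher and 0.0581% lower in males, and again 0 of the 9 members, of which Tcap was the only 1 at an unadjusted p under 0.05.

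The second comparison asked how far the 9 genes differ between litters. In the edgeR test of the 3 litter terms, with sex in the model, 7 of the 9 members had an adjusted p-value under 0.05, all but Ldb3 and Nexn. The count was 3 without the male of litter 1, 4 without its female, 4 without the female of litter 3, 4 without both libraries of litter 3 and 4 without sex in the model. The background was 32.1% of all 13771 tested genes, and 58.2% of the 553 genes at or above the mean level of Tcap, so that abundant genes as a class were often called. Those shares hold for the full set of libraries, and calls over all genes also fell when libraries were left out. The differences were small. The range of the fitted litter levels had a median of 0.32 on the log2 scale over the 9 members, 0.37 over all tested genes and 0.29 over the 553 abundant ones, and none of the 9 reached 1, which 12.3% of all genes did. The libraries of a single litter were both above the other 6 in 4 members, namely Ttn, Mybpc3, Myom1 and Myom2, and in 37% of all tested genes. They were both below the other 6 in 4 members, namely Ttn, Myom2, Actn2 and Nexn, and in 37.5% of all genes. In cells taken in bulk, a lower level can mean fewer cardiomyocytes or less of the RNA in each, and these cannot be told apart. The labels name no day or batch, so litter and preparation cannot be told apart either.

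**Figure D2:**
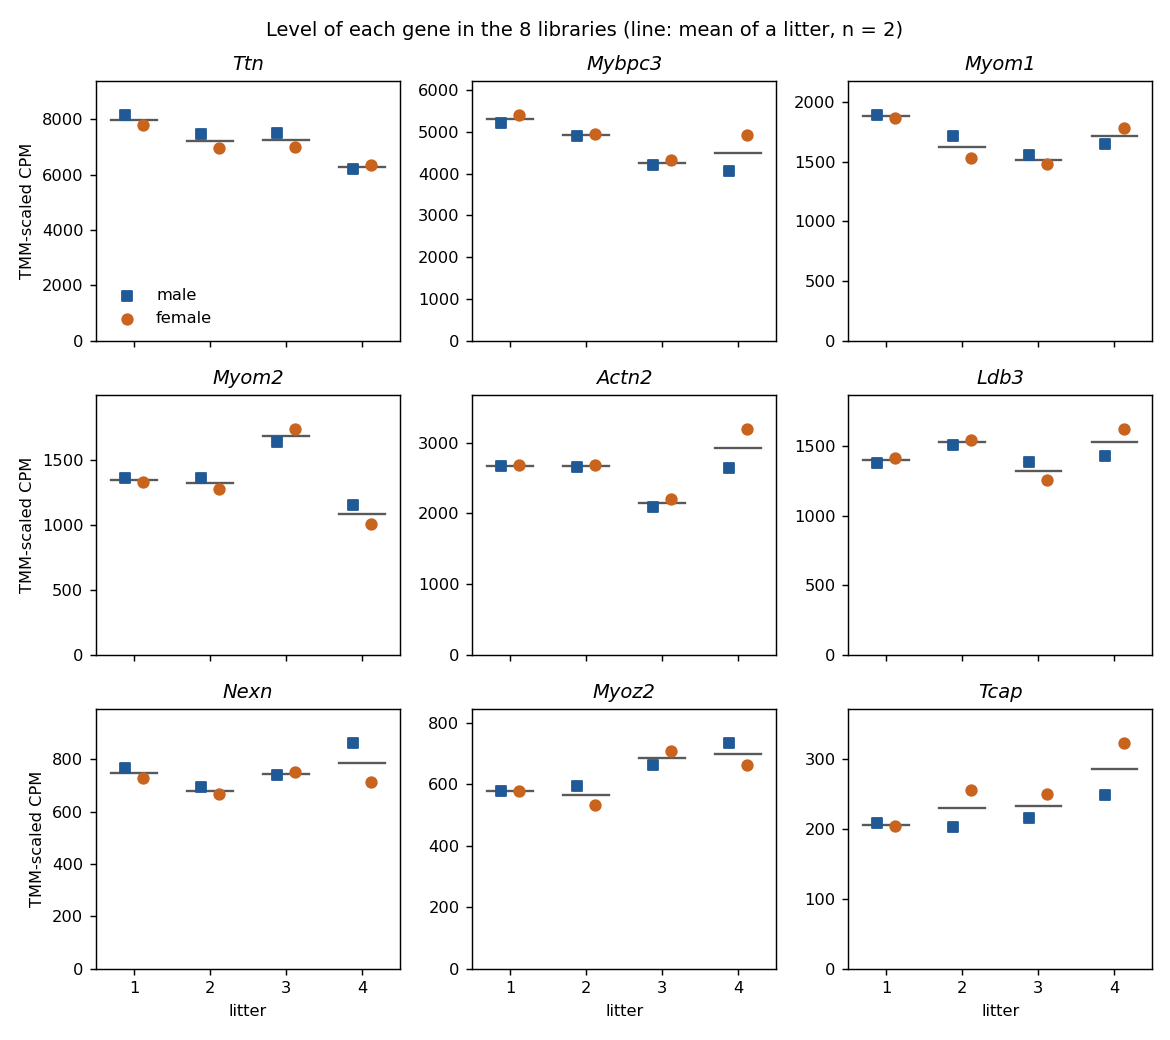
Level of each of the 9 genes in TMM-scaled CPM (vertical axis, from 0) by litter, with a square for the male, a circle for the female and a line at their mean. Myom2 is highest in both libraries of litter 3 and lowest in both of litter 4, and Actn2 is lowest in litter 3.

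Myom2 varied most among the 9. It encodes the M-protein, one of the myomesin family that cross-links thick filaments at the M-band. Myom2 was at 1360, 1360, 1632 and 1149 CPM in the males of litters 1 to 4 and at 1325, 1272, 1735 and 1006 CPM in the females. Both libraries of litter 3 were above the other 6, and both of litter 4 were below them. The fitted range over litters was 0.65 in log2 (edgeR adjusted p = 0.000676). Litter 3 was higher than the mean of the other 3 litters by 0.44 (SE 0.06, adjusted p = 0.000305), where 28.3% of all genes were called, 13.6% higher. Litter 4 was lower, at -0.42 in log2 (SE 0.06, edgeR adjusted p = 0.00406), where 10.5% of all genes were called, 5.8% lower. Each of these calls was kept without any single library. Without litter 3 the range of Myom2 fell from 0.65 to 0.32 and stayed past the threshold (adjusted p = 0.0180).

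Myom1, the gene of myomesin 1, which is the principal M-band cross-linker, did not follow Myom2. It was at 1892, 1718, 1556 and 1649 CPM in the males and at 1869, 1529, 1480 and 1787 CPM in the females. Both libraries of litter 1 were above the other 6, while those of litter 3 lay at the low end, with the female of litter 2 between them. Its range over litters was 0.31 (edgeR adjusted p = 0.0375). That call was lost without either library of litter 1 (0.176 without the male, 0.201 without the female) or of litter 3 (0.0798 and 0.121). It was also lost without all of litter 3 (0.179), without sex in the model (0.0708), and with library size alone (0.0655) or the summed cardiomyocyte markers (0.0759) as the scale.

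The ratio of Myom2 to Myom1 reads within a library does not depend on how libraries are scaled, and it set litter 3 apart. Its log2 was -0.48, -0.34, 0.07 and -0.52 in the males of litters 1 to 4 and -0.50, -0.27, 0.23 and -0.83 in the females. Litter 3 held the only libraries with more reads from Myom2 than from Myom1, 1.11 to 1 on average against 0.627 to 1 in litter 4. The litter means differed by up to 0.82 in log2, a 1.77-fold range, while littermates differed by 0.31 at most. In the exact permutation test over the 24 matchings of females to males, one-sided, p was 0.0417, the smallest these can give, and 0.0833 after Benjamini-Hochberg adjustment over 4 ratios. Without litter 3 the range was 0.37.

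**Figure D3:**
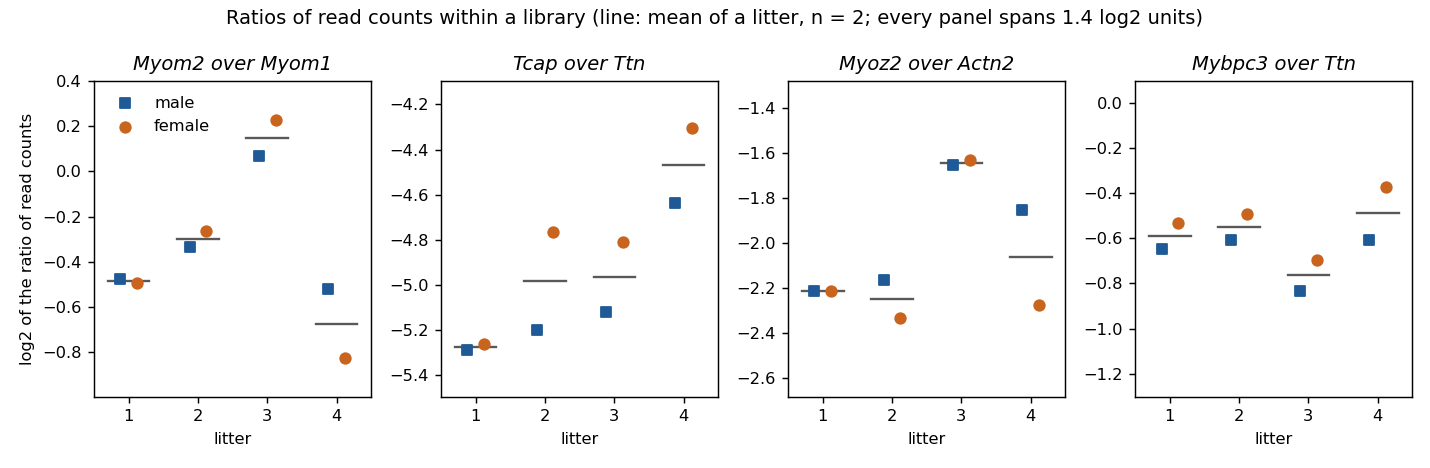
Log2 ratio of read counts within a library for 4 pairs of genes by litter, with a square for the male, a circle for the female and a line at the mean of the litter. Every panel spans the same number of log2 units. Litter 3 stands above the other litters in Myom2 over Myom1 and in Myoz2 over Actn2, and the females lie above the males in Tcap over Ttn and Mybpc3 over Ttn in all 4 litters.

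Titin and Mybpc3, with Myom1, were highest in litter 1. Ttn was at 8164, 7466, 7494 and 6193 CPM in the males of litters 1 to 4 and at 7815, 6955, 6995 and 6369 CPM in the females. Both libraries of litter 1 lay above the other 6 and both of litter 4 below them, and litters 2 and 3 overlapped. Against the other 3 litters, litter 1 was higher by 0.21 in log2 (SE 0.06, edgeR adjusted p = 0.0281), and litter 4 stood at -0.25 (SE 0.06, adjusted p = 0.0204). In litter 1 the call was lost without its male, its female or the female of litter 2, while the log2 fold change stayed at 0.21, 0.22 and 0.20. In litter 4 the call was lost without its male, the library with the high mitochondrial share, which left -0.19. It was also lost without the male or the female of litter 1, which left -0.25 and -0.25. With mitochondrial genes and Ttn left out of the library totals, Ttn in litter 4 was at -0.25 (edgeR adjusted p = 0.0202). Any other part of that share was not tested. The test over all litters gave an adjusted p of 0.0163 for Ttn, and 0.128 and 0.119 without the male or the female of litter 1.

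Mybpc3 was at 5209, 4895, 4208 and 4069 CPM in the males and at 5408, 4950, 4323 and 4919 CPM in the females. Litter 1 was above the other 6 libraries, and litter 4 was split, with its male the lowest of all and its female close to litter 2. In litter 1 Mybpc3 was higher than in the other litters by 0.22 (SE 0.06, edgeR adjusted p = 0.0362) and Myom1 by 0.22 (SE 0.06, adjusted p = 0.0378), where 13.3% of all genes were called, 7.86% higher. Those shares hold for the full set of libraries, and the number of genes called in litter 1 also changed when libraries were left out. For both genes the call was lost on dropping any 1 of 4 libraries, namely both of litter 1 and the females of litters 2 and 3. The log2 fold changes stayed close to those of the full set. For Mybpc3 they were 0.19 and 0.25 on dropping the litter 1 male or female, and 0.20 and 0.22 on dropping the litter 2 or litter 3 female. For Myom1 the same fits gave 0.23, 0.21, 0.19 and 0.22. Each such fit leaves a litter with a single library, so a lost call cannot show that the difference was smaller. Scaled to the summed cardiomyocyte markers, Ttn, Mybpc3 and Myom1 were higher in litter 1 by 0.12, 0.13 and 0.12, with adjusted p-values of 0.258, 0.224 and 0.255. The litter test of Mybpc3 had an adjusted p of 0.0288. It was 0.192 and 0.129 without the male or the female of litter 1, 0.0534 and 0.0857 without those of litter 3, 0.127 without both of litter 3, and 0.0682 without sex in the model.

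The 3 genes that were higher together in litter 1 are shown by the DNA just before a RefSeq transcript start, beside that of Myoz2, which was not called in that litter. RefSeq's table for GRCm38.p6 held such a stretch for 6 of the 9 members. Each line gives the 150 bases up to the start, 5′ to 3′ on the strand of the gene, and capitals mark a CArG box, the motif bound by serum response factor, or a MEF2 consensus, both searched on either strand.
Ttn, chr2:76982548-76982697, minus strand: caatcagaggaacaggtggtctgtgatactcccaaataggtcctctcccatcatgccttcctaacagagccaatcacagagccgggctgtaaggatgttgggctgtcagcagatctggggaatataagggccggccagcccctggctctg
Mybpc3, chr2:91117994-91118143, plus strand: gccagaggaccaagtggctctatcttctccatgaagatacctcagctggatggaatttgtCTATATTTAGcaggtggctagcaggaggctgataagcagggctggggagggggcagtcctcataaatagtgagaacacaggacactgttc
Myom1, chr17:71019407-71019556, plus strand: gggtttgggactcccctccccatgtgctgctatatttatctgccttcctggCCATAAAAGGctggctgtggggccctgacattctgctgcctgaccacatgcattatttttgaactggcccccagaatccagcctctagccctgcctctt
Myoz2, chr3:123034988-123035137, minus strand: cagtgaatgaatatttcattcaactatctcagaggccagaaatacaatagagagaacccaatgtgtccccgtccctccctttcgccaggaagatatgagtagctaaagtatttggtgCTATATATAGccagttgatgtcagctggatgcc

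Mybpc3 and Myoz2 each held a MEF2 consensus, CTATATTTAG and CTATATATAG, from 90 and 33 bases before the start, and 1.67% of the 32851 stretches in the table held one. Myom1 held a CArG box, CCATAAAAGG, from 99 bases before its start. The stretches of Ldb3 overlap, and both held the same single site, CCATTTATGG, from 35 and 109 bases before their starts. Of all stretches 0.916% held a CArG box. Neither motif was found in these windows of Ttn and Actn2. The E-box CANNTG occurred in Ttn, Mybpc3, Myom1, Myoz2 and Actn2, and in 47.7% of all stretches, while CATTCC and TATAAA occurred in none of the members' windows. The Myom1 start lies inside the gene as GENCODE M21 draws it, from 71002633 to 71126856 on chromosome 17, so that it marks only 1 of its starts.

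**Figure D4:**
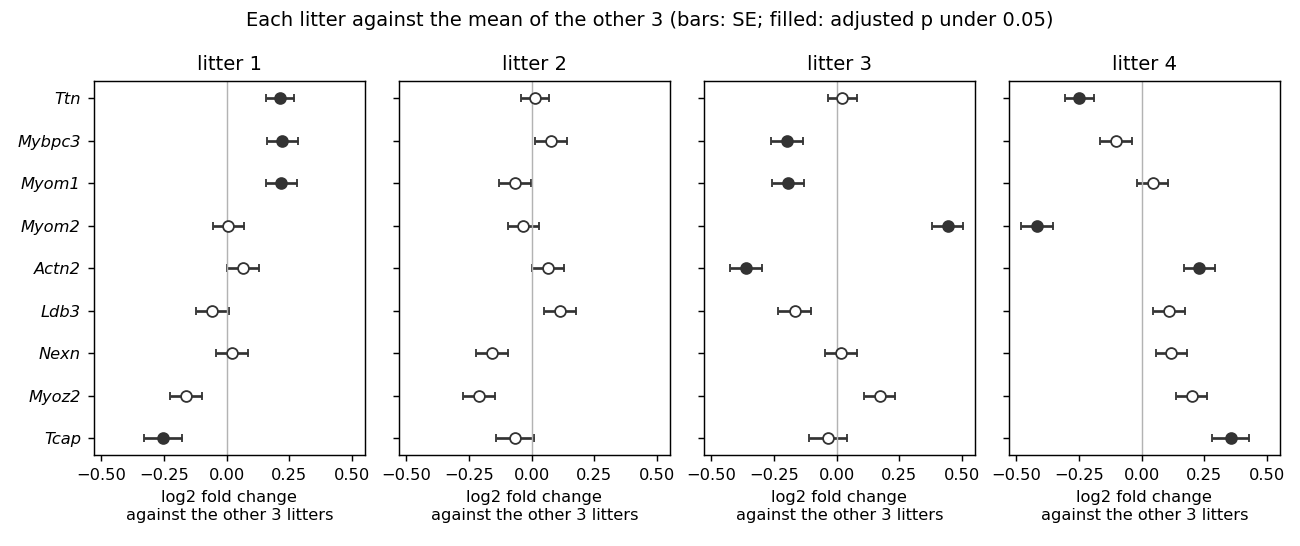
Log2 fold change of each litter against the mean of the other 3 litters (horizontal axis), with 1 panel per litter, bars of 1 SE and filled points at an edgeR adjusted p under 0.05. Myom2 has the largest value in litter 3, at 0.44, and the lowest in litter 4, at -0.42, and litter 2 has no filled point.

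Among Z-disc genes, Actn2 was low in litter 3. It was at 2670, 2662, 2086 and 2647 CPM in the males of litters 1 to 4 and at 2678, 2682, 2198 and 3195 CPM in the females. Both libraries of litter 3 lay below the other 6, and the female of litter 4 was the highest. The log2 fold change of litter 3 against the others was -0.36 (SE 0.07, edgeR adjusted p = 0.00186), where 14.8% of all genes were called lower, and no single library removed that call. In litter 3 Mybpc3 and Myom1 were also lower, with log2 fold changes of -0.20 (adjusted p = 0.0373) and -0.20 (0.0374). Both lost the call without either library of litter 1, the male of litter 2 or either library of litter 3. Without single libraries Mybpc3 ran from -0.24 to -0.16 in log2 and Myom1 from -0.23 to -0.16. With library size alone as the scale they were at -0.15 (0.104) and -0.15 (0.103).

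How the members stand in litter 3 depends on what they are set against. Against all genes, 3 members were lower and 1 was higher. Scaled to the summed cardiomyocyte markers, which were themselves low in litter 3 with a median log2 fold change of -0.30, 5 were higher and 0 lower. That scaling called 7324 of all 13771 genes higher and 644 lower, so 5 of 9 is near the background. In that scaling Mybpc3 and Myom1 turned to 0.13 and 0.13, Actn2 was at -0.03 (adjusted p = 0.701), and Ttn, Myom2, Tcap, Myoz2 and Nexn were called higher. It moved the median of all tested genes in litter 3 to 0.33. Relative to that median, Mybpc3, Myom1 and Actn2 were at -0.20, -0.19 and -0.36, and Myom2 at 0.45. In litter 4 the same scaling moved the median to -0.13, with 0 members higher and 3 lower in place of 2 and 2, and 89 of all 13771 genes higher and 1955 lower in place of 648 and 799. The range over litters in this scaling was 1.00 for Myom2, 0.60 for Myoz2 and 0.56 for Ttn, and Myom2 in litter 3 was at 0.77.

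In litter 4 Actn2 was higher by 0.23 (SE 0.06, edgeR adjusted p = 0.0394), a value that dropped to 0.11 without the female of that litter (0.386) and was 0.35 without its male (0.0293). It was also lost without the male (0.0763) or female (0.125) of litter 1, the female of litter 2 (0.0750), and the male (0.0522) or female (0.0695) of litter 3, and with library size alone (0.149) or the summed cardiomyocyte markers (0.464) as the scale. Over all litters Actn2 ranged by 0.44 (adjusted p = 0.00671). Without the female of litter 3 the adjusted p was 0.0587, and without both libraries of that litter the range was 0.13 (0.431). Scaled to the cardiomyocyte markers it was 0.09 (0.728).

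Tcap was highest in litter 4, at 249 CPM in the male and 323 CPM in the female, against 203 to 255 CPM in the other 6 libraries, so that its male overlapped them. Litter 4 was higher by 0.35 (SE 0.07, edgeR adjusted p = 0.0140), where 4.71% of all genes were called higher. The difference was 0.25 without its female (0.179), and 0.21 scaled to the cardiomyocyte markers (0.0971). In litter 1, at 209 and 203 CPM, Tcap was below the mean of the other litters by edgeR, at -0.25 in log2 (SE 0.08, adjusted p = 0.0479), where 5.41% of all genes were called lower. That call was lost without the female of litter 1, which left -0.09 (0.727, against -0.43 and 0.0375 without the male), the female of litter 2 (0.0850), the male (0.0693) or female (0.0643) of litter 3, or the female of litter 4 (0.0742). It was lost as well with DESeq2's size factors (0.0524) or library size alone (0.0547) in place of TMM. The litter test of Tcap gave an adjusted p of 0.0137, which was 0.110 without the female of litter 4 and 0.0821 without sex in the model.

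Tcap and Ttn thus stood at opposite ends in both litters. The log2 ratio of Tcap to Ttn reads was -5.29, -5.20, -5.12 and -4.64 in the males of litters 1 to 4 and -5.26, -4.77, -4.81 and -4.30 in the females. The litter means ranged over 0.81 in log2, or 1.75-fold, and over 0.31 without litter 4 and 0.51 without litter 1. The exact permutation p over the 24 matchings, one-sided, was 0.0833, and 0.111 adjusted over 4 ratios. The female was above the male in all 4 litters, with a mean difference of -0.28, male minus female. The two-sided exact permutation p for sex was 0.343, and 0.125, the smallest possible, when the sign was permuted within litters.

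Myoz2 encodes myozenin 2, or calsarcin 1, which binds α-actinin and calcineurin. It was at 577, 594, 663 and 734 CPM in the males and at 577, 533, 709 and 661 CPM in the females. All 4 libraries of litters 3 and 4 were above all 4 of litters 1 and 2. The range over litters was 0.31 (edgeR adjusted p = 0.0141), and the adjusted p was 0.0538 without the male of litter 1. With TMM no single litter passed against the other 3 in edgeR, with adjusted p-values from 0.0599 to 0.116. Litter 3 was called higher, at 0.17 to 0.50 in log2, with library size alone (0.0205) or the summed cardiomyocyte markers (0.000279) as the scale, without a filter on low counts (0.0221), in DESeq2 (0.0480), and without the male of litter 2 (0.0422), 3 (0.0430) or 4 (0.0371). Litter 2 was called lower without a filter (0.0141) or the male of litter 3 (0.0433), and litter 4 higher without a filter (0.0167) or the female of litter 3 (0.0404). The log2 ratio of Myoz2 to Actn2 was -1.65 and -1.63 in the male and female of litter 3 and between -2.33 and -1.85 in the other libraries. It ranged by 0.60 over litters and by 0.18 without litter 3 (exact permutation p = 0.167, one-sided, and 0.167 adjusted over 4 ratios).

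Ldb3 and Nexn did not pass the litter test. Ldb3 encodes a PDZ and LIM domain protein, also called ZASP or Cypher, that binds α-actinin. It was at 1381, 1512, 1386 and 1431 CPM in the males and 1419, 1549, 1257 and 1625 CPM in the females, a range of 0.21 (edgeR adjusted p = 0.121). Nexn encodes nexilin, an actin-binding protein, and shares 7.5% of its exon bases with Gm43185 on the same strand. It was at 767, 693, 741 and 863 CPM in the males and 727, 668, 750 and 713 CPM in the females, also a range of 0.21 (adjusted p = 0.197). In litter 4 the male had less Ldb3 and more Nexn than the female. Without that male Ldb3 passed, with a range of 0.31 (0.0358), and without that female Nexn passed, with a range of 0.32 (0.0411). Ldb3 also passed without a filter on low counts (0.0198), and Nexn with the cardiomyocyte markers as the scale, with a range of 0.45 (0.0168). No member was called in litter 2 (edgeR, with 2 at an unadjusted p under 0.05 and 0 in DESeq2), where 4.18% of all genes were, 3.3% higher and 0.879% lower.

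The ratio of Mybpc3 to Ttn reads varied least. Its log2 lay between -0.83 and -0.37 in the 8 libraries, with litter means that ranged over 0.27 and, without litter 3, over 0.10. In the exact permutation test over matchings, one-sided, p was 0.0417, the smallest possible, and 0.0833 adjusted over 4 ratios. The female was above the male in all 4 litters, with a mean difference of -0.15, male minus female (two-sided exact permutation p = 0.143 for sex, and 0.571 adjusted).

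Other genes of the same structures were taken from a list of 45, of which 42 were tested, and Myoz3, Actn3 and Mybph had too few counts. By sex 0 of the 42 passed in edgeR (1 at an unadjusted p under 0.05) and 0 in DESeq2. With litter as a block in edgeR 0 passed as well, where 0.211% of all genes did, and 6 were at an unadjusted p under 0.05. The lowest of these was Xirp2, higher in males, at 0.000391 (adjusted p = 0.104). Over litters 16 of 42 passed, next to 32.1% of all genes: 9 of 23 tested Z-disc genes, 3 of 10 M-band genes, 1 of 3 C-protein genes, 2 of 4 genes of the thin filament's pointed end and 1 of 2 splicing factors. Without litter 3 the count was 6, and it also fell without its female. Calls over all 13771 genes fell in both fits as well, so the drop was not particular to the list. In litter 3 14 were lower and 2 higher, but with the cardiomyocyte markers as the scale 5 were lower and 20 higher. Of all genes, 14.8% were lower and 13.6% higher in litter 3 with TMM, and 644 of 13771 were lower and 7324 higher in that scaling, so the 20 are near the background. In litter 4, 8 were higher and 0 lower, where 4.71% and 5.8% of all genes were. Scaled to the cardiomyocyte markers, 2 were higher and 4 lower there, next to 89 and 1955 of the 13771 genes.

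Xirp2, an actin-binding repeat protein of Z-discs and intercalated discs, had the smallest adjusted p of the list (edgeR, 7.15e-06), with 49.1 ± 6.66, 36.5 ± 5.13, 17.8 ± 3.37 and 30.7 ± 3.47 CPM in litters 1 to 4 (SD, n = 2). Like Myom1 it was highest in litter 1 and lowest in litter 3. Pdlim7, a PDZ and LIM protein, was highest in litter 4 at 71.2 ± 4.15 CPM, next to 38.9 to 53.2 CPM in the other litter means. Myoz1, a relative of Myoz2, was at 4.25 ± 0.331 CPM in litter 1, the lowest, and at 8.22 ± 1.20 CPM in litter 4, the highest. Cmya5 had its lowest litter mean in litter 3, 218 ± 28.4 CPM, and so did Myot, the myotilin gene, at 1.67 ± 0.0288 CPM.

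At the M-band Smyd1, a myosin-associated methyltransferase, was at 672 ± 22.7 CPM in litter 3 and 926 ± 44.4 CPM in litter 4 (SD, n = 2; edgeR adjusted p = 0.00295). Fhl2, a LIM protein that binds titin, was lowest and highest in the same litters, at 1073 and 1374 CPM (0.0206). Trim54, a ubiquitin ligase of the MuRF family, was at 8.80 CPM in litter 1 and 5.63 CPM in litter 3 (0.0308). Mybpc2, the fast skeletal relative of Mybpc3, was at 12.8 ± 0.299 CPM in litter 1 and 4.45 ± 0.455 CPM in litter 3 (0.000678), the lowest litter mean.

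Lmod3 and Lmod2, the leiomodins of the thin filament's pointed end, went opposite ways in litter 3. Lmod3 was at 63.6 ± 1.97 CPM there and at 105 to 122 CPM in the other litter means (edgeR adjusted p = 2.81e-05), and Lmod2 at 208 ± 30.5 CPM and 162 to 171 CPM (0.0476). Rbm24, a muscle splicing regulator, was highest in litter 3, at 616 ± 0.401 CPM, and lowest in litter 1, at 413 ± 4.94 CPM (0.000401). Rbm20, the principal splicing regulator of titin, stayed between 604 and 633 CPM in the 4 litter means (adjusted p = 0.841). Counts per gene symbol do not show which titin isoforms were made.

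For each member the gene with the most similar course over the 8 libraries was sought, by the root mean square difference of centred log2 CPM. This is a description, since all libraries and litters are shared. Ttn was nearest to Kif1b, a kinesin motor gene, at 0.025, then Larp4 at 0.040 and Pdzd8 at 0.041, where its own deviation from a flat line was 0.13. The nearest gene was Mlxip for Mybpc3 (0.037), Pyurf for Myom1 (0.035), Rfx7 for Myom2 (0.053), Psmd3 for Ldb3 (0.032), Zswim1 for Tcap (0.052), Rps24 for Myoz2 (0.036), D2Wsu81e for Actn2 (0.051) and Psma2 for Nexn (0.024). No member was nearest to another member. The closest pair within the 9 was Mybpc3 and Myom1, at 0.10, and the farthest was Myom2 and Actn2, at 0.41.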

How the data were processed

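Per the labels' protocols, libraries were made from 1 µg of total RNA with a stranded total RNA kit and read as single ends of 100 bases, while their molecule field says poly(A) RNA. The submitters' processing notes name STAR 2.7.3a and mm10. The counting program, annotation and strand setting are not given in the sources used here. The authors deposited raw read counts per gene symbol for 8 libraries. Symbols were matched to GENCODE M21 (GRCm38, the assembly of mm10) for positions and lengths.

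Genes were filtered with filterByExpr on sex and scaled with TMM in edgeR 4.0.16 (R 4.3.3), and tested by quasi-likelihood F tests, for sex without a litter term and for litter with sex in the model, with Benjamini-Hochberg adjustment over all 13771 tested genes and a threshold of 0.05. A standard error is the absolute log2 difference over the root of its F value. The 4 comparisons of a litter with the others share libraries and are not independent. Ratios were tested by exact permutation in Python 3.11.15. DESeq2 1.42.0, other scalings and filters, and leaving out libraries were alternatives. Scripts were tested on simulated data with 200 of 13771 genes changed. The litter test recovered 43.5% of genes changed by 0.5 in log2 and 81.5% of those changed by 1, and 8.42% and 13.8% of its calls were false. The sex test recovered 68% and 90.5%, with 8.72% and 8.59% false, so calls close to the threshold are less certain than 0.05 implies. Whether these rates carry over to the libraries used here was not tested. The sex test has no litter term, and its biological coefficient of variation was 17.3%, against 7.28% with litter as a block. By sex 306 of the 13771 genes had an unadjusted edgeR p under 0.05.

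Of 100-base windows in the longest transcript of each member, at most 0.01% occur in another gene. Exons of Myom1 overlap Myl12a on the opposite strand over 207 bases, those of Ttn overlap Gm13938 on the opposite strand over 453 bases, and those of Nexn overlap Gm43185 on the same strand over 287 bases, 7.5% of its exon length, which counting by strand cannot separate, so the level of Nexn is less certain.

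Labels give the litter as the sample number, so equal numbers mark littermates. Across genes, r between deviations from the mean of each sex was 0.506, 0.503, 0.696 and 0.367 within litters 1 to 4, and -0.482 to 0.27 between litters. Libraries of the same sex differed by chi-square values of 9.56 to 44.9 per degree of freedom, so none repeated another.

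Members and lists were chosen with earlier results of these data known. All 9 members are named. Of the list of other sarcomere genes, up to 5 per role with the smallest adjusted p past the threshold are named, with Rbm20 added after its values were seen. Likeness names the 3 nearest genes for Ttn and the nearest for each other member.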

Additional observations from a re-analysis of the deposited data

Results flagged for a closer look

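Within each sex, 4 libraries, the gap between an extreme library and its nearest neighbour was divided by the range of all 4. Of 42 groups of values, 4 had a library far from the other 3, where chance gives about 1 in 20, or 2.1. All 4 were libraries of litter 3, and they share their libraries, so they are not independent. The level of Actn2 in the male of litter 3 was 2086 CPM, against 2647 to 2670 CPM in the other males. The log2 ratio of Myoz2 to Actn2 in the female was -1.63, against -2.33 to -2.21 in the other females. Summed cardiomyocyte markers in the male were 73993 CPM, against 88408 to 90599 CPM. Summed mural markers in the female were 422 CPM, against 902 to 984 CPM, a sum of which Acta2 gave most and which Cspg4, highest in litter 3, did not follow.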

How the results depend on the processing

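Myom2 passed the litter test in all 17 alternatives, and its calls in litters 3 and 4 in all 15 each. Each litter has 2 libraries, which limits the precision of its level.

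The replicate block raised the sex calls from 6 to 29 genes (21 higher, 8 lower in males), with 0 members in both, and changed no member's call. Genes lower in males, 1 at first, were 4 without a filter, 4 with DESeq2 and 3 without litter 3.

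Genes called by litter went from 4427 to 7421 with cardiomyocyte scaling and 1898 without litter 3. Members called by litter, 7, became 4 with litter alone and 4 without litter 3, and pathway genes called went from 16 to 6 without litter 3. Members lower in litter 1, 1 at first, were 0 with DESeq2's size factors and 0 with library size alone. In litter 3, 1 higher and 3 lower became 2 and 1 with library size alone, 5 and 0 with cardiomyocyte scaling, and 2 higher without a filter or with DESeq2. Cardiomyocyte scaling left 0 members higher in litter 1 and 0 in litter 4, and library size alone 1 in litter 4, and without a filter 1 was lower in litter 2. Cardiomyocyte scaling turned Ldb3 by sex to 0.041, and Mybpc3 and Myom1 in litter 3 to 0.13 and 0.13. With library size alone litter 2 had 530 higher and 74 lower genes, litter 3 had 2419 and 1698 and litter 4 had 262 and 1501, against 454 and 121, 1871 and 2032, and 648 and 799 with TMM. With cardiomyocyte scaling litters 1 to 4 had 455, 287, 7324 and 89 higher and 1152, 140, 644 and 1955 lower, where TMM gave 1082 and 745 in litter 1. The cause was not tested.

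Without single libraries, members called by litter ran from 3 to 8, pathway genes from 10 to 19 and genes lower in males from 1 to 2. Members higher and lower were 0 to 3 and 0 to 1 in litter 1, 0 to 1 lower in litter 2, 1 to 2 and 1 to 4 in litter 3, and 0 to 2 and 1 to 2 in litter 4. By sex, Myom1 ran from -0.028 to 0.092, Myom2 from -0.070 to 0.19, Myoz2 from -0.027 to 0.11 and Ldb3 from -0.11 to 0.020. Actn2 ran from -0.19 to -0.00067, Mybpc3 from -0.16 to -0.042, Ttn from 0.0045 to 0.13 and Nexn from 0.033 to 0.13. Without single litters the range of the log2 ratio ran from 0.37 to 0.82 for Myom2 over Myom1, 0.31 to 0.81 for Tcap over Ttn, 0.18 to 0.60 for Myoz2 over Actn2 and 0.10 to 0.27 for Mybpc3 over Ttn.

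Per length of the longest transcript, Actn2 was at 864, Ldb3 at 282, Nexn at 289, Myoz2 at 262, Myom1 at 298 and Myom2 at 267 CPM per kb.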
